A study of Mus musculus with 4 samples.

Results

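The genes described here encode the machinery that copies DNA and divides the cell, followed in mouse T cells in 2 separate experiments. The 50 members were chosen by symbol, with earlier results of these data known. They are 21 replication genes (Mcm2 to Tk1), 3 regulators of the step from G1 into S phase (Ccne1, Ccne2 and E2f1) and 26 mitotic genes (Ccna2 to Foxm1), out of 10679 rows of the table of the first experiment and 23284 of the second. All 50 had a value in every library. In the first experiment regulatory T cells (Treg) were taken from the spleen of Balb/c mice carrying a Foxp3-hCD2 reporter, by purifying cells positive for the human CD2 reporter. The DSS Treg came from mice given drinking water with 3% DSS (dextran sulfate sodium, a polymer that injures the colon epithelium) for 7 days, and the untreated Treg came from mice without DSS. In the second, naive CD4 T cells from C57BL6 wild-type animals received by transduction either a Sox12 vector or a mock vector, where Sox12 is a SoxC transcription factor. Age, sex, the number of mice behind a library, the promoter of the vector, the sorting of transduced cells and the time in culture were not stated in the labels. Each group is 1 library, nothing says whether it pools animals, so no difference below has a replicate check, no test was possible and no p-value is given.

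DNA is copied once per division because origins are licensed in G1, when Cdc6 and Cdt1 help to load the ring of Mcm2 to Mcm7, and fired in S phase, when Cdc45 and the GINS proteins turn that ring into the active helicase. The cell then condenses and separates its chromosomes under cyclin B with Cdk1, Plk1 and the Aurora kinases, while the spindle checkpoint holds back the APC/C ubiquitin ligase. The replication genes are classic targets of E2F factors, and many mitotic genes are repressed in resting cells by the DREAM complex and activated by MuvB with B-Myb and Foxm1 through a promoter element called the CHR (cell cycle genes homology region). Resting T cells hold low levels of these transcripts and dividing T cells high ones, so a level in a bulk sample mixes the share of dividing cells with the amount per cell, and these cannot be told apart here.

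The promoters of the replication and mitotic members differed in sequence, and examples are shown because the elements they hold differ between the classes. RefSeq promoter windows of build GRCm38.p6, from 250 bases before to 50 bases after the transcription start, were matched by symbol for 40 of the 50 members. The motifs searched, on both strands, were TTCGCGC or TTGGCGC for E2F, TTTGAA or TTTAAA or TTCGAA for the CHR, CCAAT for the CCAAT box, and AACAAAG or AACAAT for SoxC-type sites. The 2 E2F words can overlap on opposite strands, and TTTAAA and TTCGAA read the same on both. Positions count from the first transcribed base as 0. The stretches shown run from 150 bases to 1 base before the start, 5′ to 3′ in the direction of the gene. The 4 replication members with an E2F match in that stretch were Mcm6 at chr1:128359706-128359855 on the minus strand, Mcm5 at chr8:75109359-75109508 on the plus strand, Pola1 at chrX:93632156-93632305 on the minus strand and Rfc3 at chr5:151651209-151651358 on the minus strand, with the match in capitals.
Mcm6: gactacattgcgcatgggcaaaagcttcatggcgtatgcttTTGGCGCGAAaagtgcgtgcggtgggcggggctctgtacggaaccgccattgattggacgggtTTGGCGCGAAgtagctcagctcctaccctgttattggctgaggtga
Mcm5: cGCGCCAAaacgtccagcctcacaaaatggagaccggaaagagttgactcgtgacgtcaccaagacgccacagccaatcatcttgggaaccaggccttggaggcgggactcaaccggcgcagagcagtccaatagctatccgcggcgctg
Pola1: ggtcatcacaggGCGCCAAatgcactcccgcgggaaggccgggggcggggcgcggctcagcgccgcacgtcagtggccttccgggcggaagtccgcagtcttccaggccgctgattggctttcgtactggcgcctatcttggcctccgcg
Rfc3: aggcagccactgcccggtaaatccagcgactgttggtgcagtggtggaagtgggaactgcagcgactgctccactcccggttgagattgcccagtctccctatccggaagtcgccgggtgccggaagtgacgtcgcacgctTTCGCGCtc
Mcm6 held 2 separate blocks in which both E2F words overlap, whereas Rfc3 held a single match 9 bases before the start. The 4 mitotic members shown have a CHR and a CCAAT box in the stretch and the largest differences in DSS Treg among such members. They are Plk1 at chr7:122159285-122159434 on the plus strand, Ccnb1 at chr13:100786487-100786636 on the minus strand, Cdc20 at chr4:118437344-118437493 on the minus strand and Cenpa at chr5:30666736-30666885 on the plus strand, with CHR and CCAAT matches in capitals (ATTGG is CCAAT on the other strand).
Plk1: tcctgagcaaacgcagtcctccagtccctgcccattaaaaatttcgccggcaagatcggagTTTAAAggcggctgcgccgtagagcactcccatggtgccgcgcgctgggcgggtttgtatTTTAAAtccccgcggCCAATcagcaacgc
Ccnb1: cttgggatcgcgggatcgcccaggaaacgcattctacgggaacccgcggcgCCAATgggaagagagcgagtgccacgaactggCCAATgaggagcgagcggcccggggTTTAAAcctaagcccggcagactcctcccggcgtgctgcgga
Cdc20: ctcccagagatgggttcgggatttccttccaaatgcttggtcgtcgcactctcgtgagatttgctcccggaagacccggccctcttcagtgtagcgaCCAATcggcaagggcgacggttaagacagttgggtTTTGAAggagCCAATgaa
Cenpa: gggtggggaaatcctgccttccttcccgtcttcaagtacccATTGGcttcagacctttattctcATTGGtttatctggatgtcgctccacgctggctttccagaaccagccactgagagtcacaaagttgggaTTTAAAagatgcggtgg
In each of these 4 the last CHR before the start lay within 42 bases of it. Capitals mark only the elements named for each class. The Mcm6, Mcm5 and Pola1 stretches also hold CCAAT boxes, and the Ccnb1 stretch an E2F match, that are not marked as such.

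Of the mitotic members with a promoter window 19 of 21 (90.5%) held a CHR, against 7 of 17 replication members (41.2%) and 31.9% of all 27025 genes with a window. Within 50 bases of the start the CHR was found in 17 of 21 mitotic members and in 2 of 17 replication members, against 9.91% of all genes. The E2F motif went the other way, with 3 of 21 mitotic members (14.3%), 7 of 17 replication members (41.2%) and 4.47% of all genes. CCAAT boxes were frequent in both, in 18 of 21 mitotic members and 12 of 17 replication members, against 41.1% of all genes. SoxC-type words were in 2 mitotic and 2 replication members, at shares of 9.52% and 11.8%, against 17.7% of all genes. The words do not cover all known forms of these sites, and 6 of the 40 members had no match to any of them (Cdc6, Rfc4, Tyms, E2f1, Mad2l1 and Nusap1). Among related genes that are not members, 42 of 57 other mitotic genes and 11 of 39 other replication genes held a CHR. These are counts of letters, so a match is not a bound site.

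**Figure D1:**
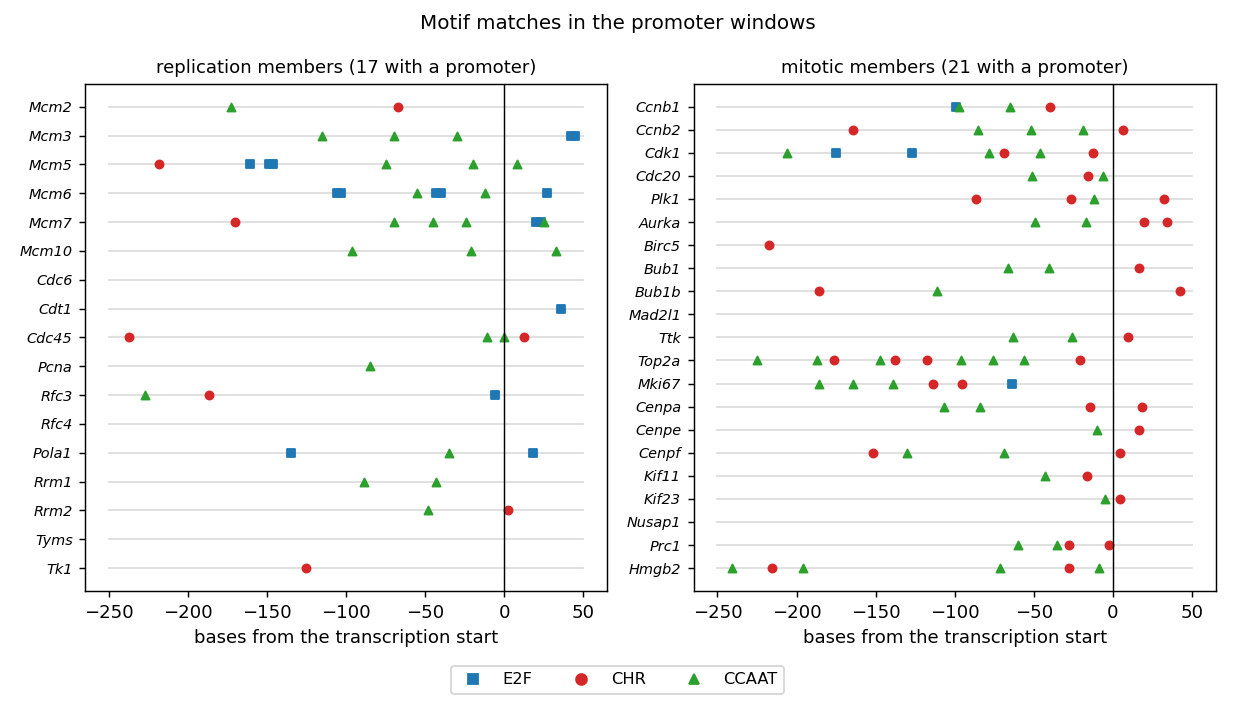
Position of E2F (squares), CHR (circles) and CCAAT (triangles) matches in the promoter window of each replication member (left, 17 genes) and mitotic member (right, 21 genes), in bases from the transcription start (vertical line). CHR matches cluster at the start in the mitotic members (median position -23) and are few and farther upstream in the replication members (median position -150.5).

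The genes that define the groups were checked first. Foxp3, the lineage factor of Treg, had 84.9 FPKM (fragments per kb of transcript, scaled to the mapped fragments of the library) in DSS Treg and 88.2 FPKM in untreated Treg, and Sox12 had 829 FPKM with the Sox12 vector and 1.56 FPKM with the mock vector. Foxp3 in those transduced cells had 127 FPKM with the Sox12 vector and 20.9 FPKM with the mock vector. Depth is unknown for the DSS table. In the vector table the low values place the Sox12 vector library at about 1.05 times the fragments of the mock vector library. With transcript lengths from GENCODE vM21, 1 FPKM stood there for about 44.9 fragments per kb (Sox12 vector) and 42.8 (mock vector), an estimate based on only 16 and 13 genes. The members then had from 696 to 59569 fragments each.

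In Treg from DSS-treated mice all 50 members were higher than in untreated Treg, by small and similar amounts. Their ratios ran from 1.02 to 1.43, with a median of 1.21. The median change on the log2(FPKM + 1) scale was 0.25, against 0.05 over the 10545 genes whose 2 libraries averaged 1 FPKM or more. Most genes leaned the same way in this comparison, since 66.1% of all genes were higher and 33.9% lower. Once the median change of all genes was set to 0, so that as many genes were higher as lower, 49 of the 50 members were higher, Rfc3 being the exception. A difference of at least 1.2 times on that scale was found for 22 members (44.0% of them) and for 7.39% of all genes, and with the median set to 0 for 12 members and 4.80% of all genes. No member was 1.2 times lower, against 2.95% of all genes. No member reached 1.5 times in either direction, against 0.872% of all genes higher and 0.446% lower, nor 2 times, against 0.19% higher and 0.0759% lower. The lowest level of any member in these libraries was 3.01 FPKM, so none depended on the filter.

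Beside this, markers of several other blood cells were also higher in the DSS library, where 66.1% of all genes were higher. Of the erythroid precursor markers 19 of 20 had a value and 19 were higher, Hba-a1 and Hbb-b1 being the most abundant, with a summed level of 951 FPKM in DSS Treg and 631 FPKM in untreated Treg. Basophil and mast cell markers were higher in 8 of 8, summing to 33.5 FPKM in DSS Treg and 9.48 FPKM in untreated Treg. That count is partly set by the listing, which needed more than 1.00 FPKM in at least 1 library. Fcer1a, Ms4a2, Cd200r3, Gata2 and Hdc passed it only through the DSS library, so their direction was fixed in advance. Mcpt8, Prss34 and Cpa3 were above that level in both libraries. Of the myeloid and neutrophil markers 7 of 11 had a value, 5 of them higher and 2 lower, with sums of 36.5 FPKM in DSS Treg and 22.8 FPKM in untreated Treg. Among them Ms4a3 was listed only through the DSS library, and S100a8 and S100a9 only through the untreated library. None of these listed markers was at 0. Macrophage and dendritic cell markers were higher in 5 of the 6 with a value, summing to 100.3 FPKM in DSS Treg and 92.6 FPKM in untreated Treg. Cst3 made up most of that sum, with 76.6 FPKM in DSS Treg and 70.1 FPKM in untreated Treg. The lower marker was Lyz2, with 6.36 FPKM in DSS Treg and 8.30 FPKM in untreated Treg. T cell identity genes, by contrast, summed to 1778 FPKM in DSS Treg and 1794 FPKM in untreated Treg, and Treg genes to 618 FPKM in DSS Treg and 643 FPKM in untreated Treg. Markers of NK cells and CD8 T cells were lower in 6 of the 6 with a value (33.9% of all genes were). Their sums were 29.8 FPKM in DSS Treg and 34.7 FPKM in untreated Treg. Of these, Klrd1 was listed only through the untreated library. The B and plasma cell markers were lower in 3 of the 4 with a value (33.9% of all genes were). Their sums were 252 FPKM in DSS Treg and 302 FPKM in untreated Treg. The part of these cells in the difference of the members was not tested.

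**Figure D2:**
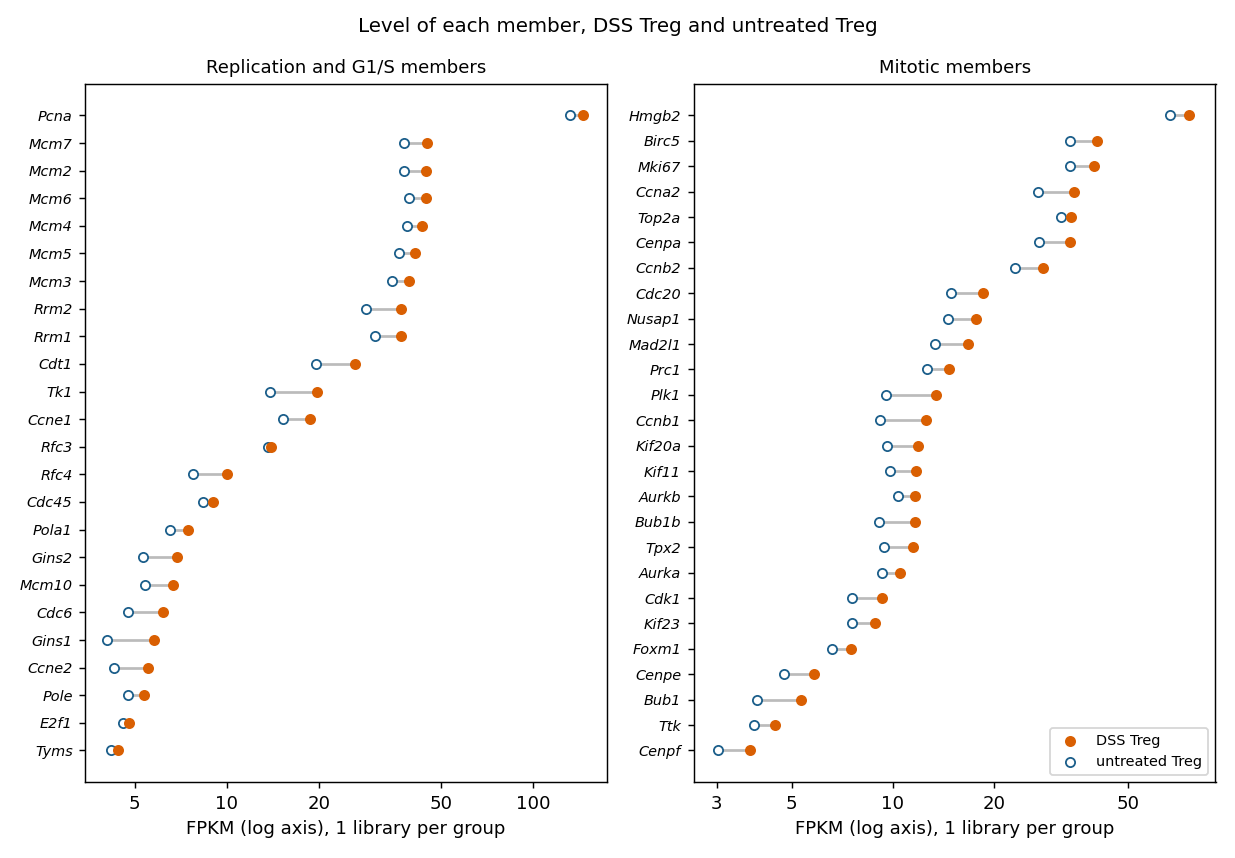
Level of each member in FPKM (log axis) in the DSS Treg library (filled) and the untreated Treg library (open), replication and G1/S members left and mitotic members right. Every filled point lies to the right of its open point, with the closest pair at Rfc3 and wide gaps at Tk1, Gins1 and Plk1.

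The replication members were not alike within this narrow range. The ring subunits Mcm2 to Mcm7 lay close together, at 39.2 to 45.1 FPKM in DSS Treg and 34.7 to 39.3 FPKM in untreated Treg. Their ratios lay between 1.12 (Mcm4) and 1.19 (Mcm7), and none reached 1.2 times. The licensing factors that load this ring stood higher. Cdt1 had 26.3 FPKM in DSS Treg and 19.6 FPKM in untreated Treg (ratio 1.34), and Cdc6 had 6.19 FPKM in DSS Treg and 4.74 FPKM in untreated Treg (ratio 1.30). Of the factors that activate the helicase, the GINS subunit Gins1 had 5.79 FPKM in DSS Treg and 4.06 FPKM in untreated Treg. Its ratio of 1.43 was the highest of all 50 members. Gins2, its partner in the same complex, had 6.87 FPKM in DSS Treg and 5.31 FPKM in untreated Treg, and Mcm10, which acts in helicase activation, had 6.69 FPKM in DSS Treg and 5.38 FPKM in untreated Treg. Cdc45, the third component of the helicase, had 8.98 FPKM in DSS Treg and 8.37 FPKM in untreated Treg. Its ratio of 1.07 was below those of Gins1 and Gins2. The GINS subunits that are not members had ratios of 1.13 (Gins3) and 0.965 (Gins4).

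The clamp, clamp loader and polymerase genes act behind the helicase. Pcna, the sliding clamp and the most abundant member, had 145 FPKM in DSS Treg and 132 FPKM in untreated Treg. Of the clamp loader, Rfc4 had 9.997 FPKM in DSS Treg and 7.77 FPKM in untreated Treg, while Rfc3 had 13.9 FPKM in DSS Treg and 13.6 FPKM in untreated Treg. These subunits of a single complex thus had ratios of 1.29 and 1.02. The other subunits of this complex, which are not members, had ratios of 1.06 (Rfc1), 1.14 (Rfc2) and 0.988 (Rfc5). Pola1, the catalytic subunit of the priming polymerase, had 7.48 FPKM in DSS Treg and 6.54 FPKM in untreated Treg, and Pole, the catalytic subunit of the leading-strand polymerase, had 5.35 FPKM in DSS Treg and 4.76 FPKM in untreated Treg.

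The nucleotide supply genes ranged widely. Tk1, the cytosolic thymidine kinase that salvages thymidine, had 19.7 FPKM in DSS Treg and 13.9 FPKM in untreated Treg, and its log2 change of 0.48 exceeded that of 98.4% of all genes. Tyms, which makes thymidylate from deoxyuridylate, had 4.40 FPKM in DSS Treg and 4.20 FPKM in untreated Treg, a ratio of 1.05. The subunits of ribonucleotide reductase lay between these. Rrm2, the small subunit made for S phase, had 37.1 FPKM in DSS Treg and 28.5 FPKM in untreated Treg (ratio 1.30), and Rrm1, the large subunit, had 36.9 FPKM in DSS Treg and 30.5 FPKM in untreated Treg (ratio 1.21). Among the regulators of S phase entry, cyclin E2 (Ccne2) had 5.54 FPKM in DSS Treg and 4.29 FPKM in untreated Treg, and cyclin E1 (Ccne1) had 18.6 FPKM in DSS Treg and 15.2 FPKM in untreated Treg. E2f1, an activating E2F factor, was nearly level at 4.79 FPKM in DSS Treg and 4.59 FPKM in untreated Treg.

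The mitotic members were all higher in DSS Treg and lay closer together than the replication members. Their median change was 0.26 and the middle of the class spanned 0.10 (interquartile range), against 0.23 and 0.16 for the replication members. The medians differed by 0.02, which is small beside the spread within either class. Outside the members the spreads were closer, with interquartile ranges of 0.14 for 69 other mitotic genes and 0.16 for 47 other replication genes. Plk1, the kinase that drives entry into mitosis, had 13.4 FPKM in DSS Treg and 9.54 FPKM in untreated Treg (ratio 1.41). Cyclin B1 (Ccnb1) had 12.6 FPKM in DSS Treg and 9.16 FPKM in untreated Treg (ratio 1.37). Its kinase partner Cdk1 had 9.27 FPKM in DSS Treg and 7.57 FPKM in untreated Treg, and cyclin B2 (Ccnb2) had 27.9 FPKM in DSS Treg and 23.0 FPKM in untreated Treg. Cyclin A2 (Ccna2), which serves S phase and early mitosis, had 34.6 FPKM in DSS Treg and 27.0 FPKM in untreated Treg.

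The 5 genes of the spindle checkpoint and its target were higher by ratios of 1.16 to 1.35. Bub1, a checkpoint kinase, had 5.32 FPKM in DSS Treg and 3.94 FPKM in untreated Treg, at the top of that range. Bub1b, which encodes the checkpoint protein BubR1, had 11.6 FPKM in DSS Treg and 9.09 FPKM in untreated Treg, and Mad2l1 (Mad2) had 16.7 FPKM in DSS Treg and 13.4 FPKM in untreated Treg. Cdc20, the APC/C activator that these proteins hold back, had 18.5 FPKM in DSS Treg and 14.9 FPKM in untreated Treg. Ttk, the kinase Mps1 at the head of the checkpoint, had the lowest ratio of the group with 4.47 FPKM in DSS Treg and 3.86 FPKM in untreated Treg.

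In the chromosomal passenger complex the members were unequal. Birc5 (survivin) had 40.6 FPKM in DSS Treg and 33.6 FPKM in untreated Treg, while its kinase Aurkb had 11.6 FPKM in DSS Treg and 10.4 FPKM in untreated Treg. The spindle pole kinase Aurka was close to Aurkb in ratio, with 10.5 FPKM in DSS Treg and 9.28 FPKM in untreated Treg. The centromere genes were close to each other, with ratios of 1.23 to 1.25. Cenpa, the centromeric histone H3 variant, had 33.6 FPKM in DSS Treg and 27.2 FPKM in untreated Treg, the motor Cenpe had 5.85 FPKM in DSS Treg and 4.75 FPKM in untreated Treg, and Cenpf had 3.77 FPKM in DSS Treg and 3.01 FPKM in untreated Treg. The 6 spindle and cytokinesis genes (Tpx2, Kif11, Kif20a, Kif23, Nusap1 and Prc1) had ratios of 1.16 to 1.24, with Kif20a, a motor of cytokinesis, highest at 11.9 FPKM in DSS Treg and 9.59 FPKM in untreated Treg.

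The chromosome genes and Foxm1 all stayed below 1.2 times. Top2a, the topoisomerase that disentangles sister DNA, had 33.97 FPKM in DSS Treg and 31.6 FPKM in untreated Treg, the lowest ratio of the class at 1.08. Hmgb2, a chromatin protein also found outside division, had 75.9 FPKM in DSS Treg and 66.5 FPKM in untreated Treg (ratio 1.14). Mki67, the proliferation antigen Ki-67, had 39.6 FPKM in DSS Treg and 33.7 FPKM in untreated Treg (ratio 1.18). Foxm1, the factor that acts on mitotic promoters, had 7.51 FPKM in DSS Treg and 6.61 FPKM in untreated Treg (ratio 1.14). Level and change showed no clear relation over the members as a whole. Across the 50 genes, which share the 2 libraries, Spearman's rho of change with mean level was -0.05.

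Genes of the same processes outside the members gave a similar picture for mitosis and a weaker one for replication. Of 69 other mitotic genes 68 were higher in DSS Treg (66.1% of all genes were), with a median change of 0.24 (0.05 over all genes). At least 1.2 times higher were 29 of them, against 7.39% of all genes. The most abundant of them, Smc4 of condensin, was nearly level with 212 FPKM in DSS Treg and 211 FPKM in untreated Treg. Of 47 other replication genes 38 were higher (66.1% of all genes were), with a median of 0.16. At least 1.2 times higher were 7 of these, against 7.39% of all genes. The most abundant, the single-strand binding subunit Rpa1, had 62.7 FPKM in DSS Treg and 61.0 FPKM in untreated Treg, and the lowest in ratio was Rpa3, its smallest partner, with 14.6 FPKM in DSS Treg and 16.7 FPKM in untreated Treg. Of 18 regulators of the E2F, Rb and MuvB type 14 were higher (66.1% of all genes were), with a median of 0.15. The most changed was Mybl2 (B-Myb), the partner of MuvB at mitotic promoters, with 7.15 FPKM in DSS Treg and 4.86 FPKM in untreated Treg (ratio 1.47).

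**Figure D3:**
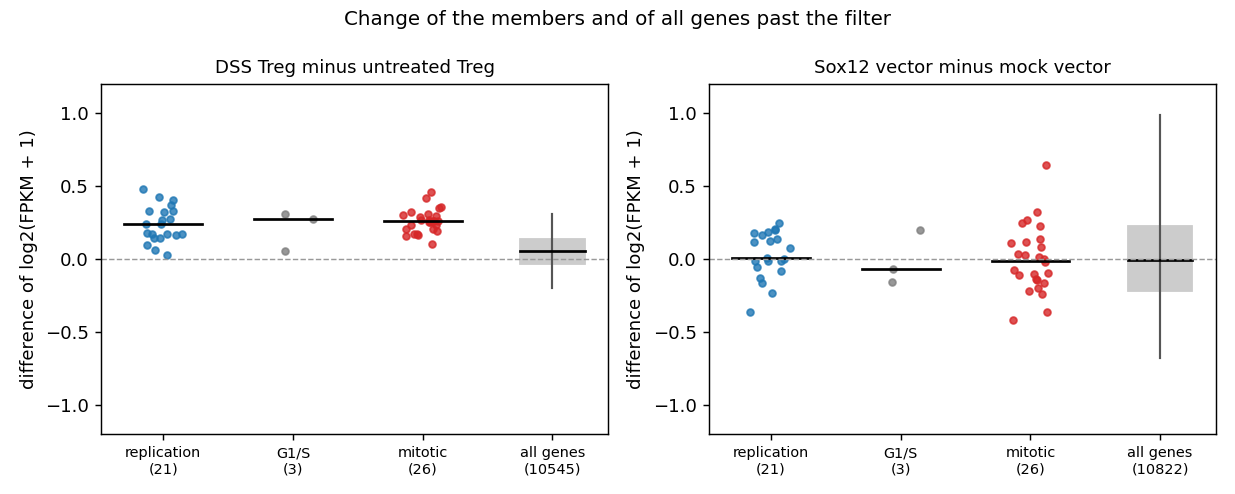
Difference of log2(FPKM + 1) for each member by class (points, with the class median as a line) and for all genes past the filter (box for the middle 50%, whisker from the 5th to the 95th percentile, line for the median). In DSS Treg against untreated Treg (left) every member lies above 0 with class medians of 0.23 to 0.28, and with the Sox12 vector against the mock vector (right) the classes straddle 0.

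With the Sox12 vector the members as a group were level with the mock vector, while many other genes differed. Of the 50 members 24 were higher and 26 lower, with a median change of -0.0022 on the log2(FPKM + 1) scale. All genes split in nearly the same way, 48.9% higher and 51.1% lower with a median of -0.01. The split of the members followed the scaling, with 30 higher (55.9% of all genes) when the summed FPKM were made equal without the 20 highest genes, and 20 higher (45% of all genes) when the 75th percentiles were made equal. At least 1.2 times higher were 3 members (22.3% of all genes were), and at least 1.2 times lower were 3 (21.2% of all genes were). At 1.5 times only Nusap1 passed, against 10.1% of all genes, and no member was 1.5 times lower, against 6.88% of all genes. None reached 2 times, against 4.85% of all genes higher and 1.91% lower. The middle of the members' changes spanned 0.27 (interquartile range), against 0.44 over all genes. The members are abundant in these libraries (13.7 FPKM or more in each).

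Markers of other cells beside this comparison were mixed. Markers of NK cells and CD8 T cells were higher in 10 of 10 (48.9% of all genes were), and none was at 0. Their summed level was 515 FPKM with the Sox12 vector and 155 FPKM with the mock vector. T cell identity genes summed to 1086 FPKM with the Sox12 vector and 1228 FPKM with the mock vector, and Treg genes to 907 FPKM with the Sox12 vector and 963 FPKM with the mock vector. Most of the Treg sum was Il2ra, at 568 FPKM with the Sox12 vector and 629 FPKM with the mock vector. The Treg genes were not alike, with ratios of 6.08 for Foxp3, 1.56 for Ikzf2, 0.903 for Il2ra, 0.875 for Ctla4 and 0.313 for Folr4. Macrophage and dendritic cell markers summed to 197 FPKM with the Sox12 vector and 212 FPKM with the mock vector, with Csf1r at 0 in both. Cst3 made up most of that sum, with 117 FPKM with the Sox12 vector and 187 FPKM with the mock vector, while Fcer1g was higher at 67.1 FPKM with the Sox12 vector and 18.8 FPKM with the mock vector. Erythroid markers summed to 35.8 FPKM with the Sox12 vector and 60.5 FPKM with the mock vector, with Car1, Slc4a1, Rhag and Tspo2 at 0 in both. The lower sum came from Hbb-b1, at 9.27 FPKM with the Sox12 vector and 46.6 FPKM with the mock vector, and 3 of the 5 erythroid markers past the filter were higher. B and plasma cell markers summed to 3.83 FPKM with the Sox12 vector and 3.10 FPKM with the mock vector. Basophil and mast cell markers, of which none passed the filter, summed to 0.866 FPKM with the Sox12 vector and 1.25 FPKM with the mock vector, with Prss34 and Ms4a2 at 0 in both. Of the myeloid and neutrophil markers none of 11 passed the filter, and Elane, Ms4a3, Cebpe, Camp, S100a8 and S100a9 were at 0 in both libraries. The part of these cells in the members' values was not tested.

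**Figure D4:**
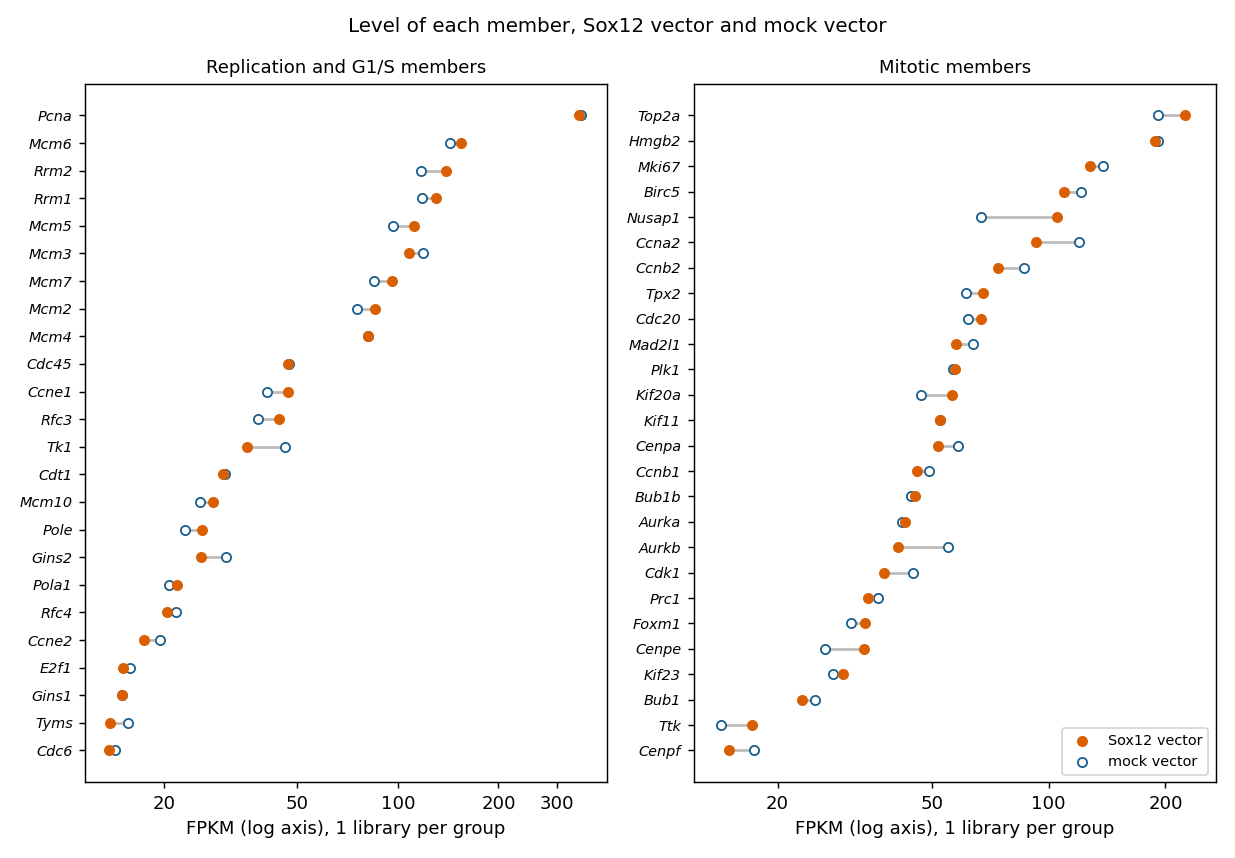
Level of each member in FPKM (log axis) in the Sox12 vector library (filled) and the mock vector library (open), replication and G1/S members left and mitotic members right. The filled points lie on either side of the open points, with the widest gaps at Nusap1, Aurkb, Ccna2 and Tk1.

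The mitotic members showed the widest differences with Sox12, in both directions. Nusap1, which binds spindle microtubules, had 105 FPKM with the Sox12 vector and 67.0 FPKM with the mock vector, a ratio of 1.57 with an approximate 95% counting interval of 1.53 to 1.61. This interval, like those that follow, covers counting error only and no difference between cultures. Aurkb, the passenger complex kinase, had 40.9 FPKM with the Sox12 vector and 55.04 FPKM with the mock vector (ratio 0.743, counting interval 0.710 to 0.776). Cyclin A2 had 92.9 FPKM with the Sox12 vector and 120 FPKM with the mock vector (ratio 0.776, counting interval 0.758 to 0.795). The motor Cenpe had 33.3 FPKM with the Sox12 vector and 26.4 FPKM with the mock vector (ratio 1.26, counting interval 1.23 to 1.30).

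Genes that work together did not always lie on the same side. The 4 genes of cyclins A2, B1 and B2 and of Cdk1 were all lower (51.1% of all genes were). They summed to 250 FPKM with the Sox12 vector and 300 FPKM with the mock vector. Cdk1 had 37.7 FPKM with the Sox12 vector and 44.7 FPKM with the mock vector, Ccnb2 had 74.1 FPKM with the Sox12 vector and 86.3 FPKM with the mock vector, and Ccnb1 had 45.7 FPKM with the Sox12 vector and 49.2 FPKM with the mock vector. Spindle genes leaned the other way, with Kif20a at 56.4 FPKM with the Sox12 vector and 46.8 FPKM with the mock vector and the spindle assembly factor Tpx2 at 67.5 FPKM with the Sox12 vector and 61.3 FPKM with the mock vector. The checkpoint kinase Ttk had 17.2 FPKM with the Sox12 vector and 14.3 FPKM with the mock vector. Top2a had 224 FPKM with the Sox12 vector and 192 FPKM with the mock vector, whereas Mki67 had 128 FPKM with the Sox12 vector and 138 FPKM with the mock vector, so these common proliferation markers differed in direction. Birc5 had 109.8 FPKM with the Sox12 vector and 121 FPKM with the mock vector, and Mad2l1, Cenpa, Cenpf, Bub1 and Prc1 were also lower, with ratios of 0.863 to 0.945. Plk1 had 57.2 FPKM with the Sox12 vector and 56.7 FPKM with the mock vector, and Aurka, Bub1b, Kif11 and Hmgb2 were as close, with ratios of 0.982 to 1.02 whose counting intervals all held 1. Foxm1 had 33.6 FPKM with the Sox12 vector and 31.0 FPKM with the mock vector, while Cdc20 and Kif23 had ratios of 1.08 and 1.06.

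Among the replication members the differences were smaller. Tk1 stood out as lower, with 35.4 FPKM with the Sox12 vector and 45.9 FPKM with the mock vector (ratio 0.772, counting interval 0.731 to 0.816). Its counterpart Tyms had 13.7 FPKM with the Sox12 vector and 15.6 FPKM with the mock vector. Ribonucleotide reductase went the other way, Rrm2 having 139 FPKM with the Sox12 vector and 117 FPKM with the mock vector and Rrm1 130 FPKM with the Sox12 vector and 118 FPKM with the mock vector. The ring subunits were higher in 4 of 6 cases (48.9% of all genes were). Mcm5 had 111 FPKM with the Sox12 vector and 97.0 FPKM with the mock vector, and Mcm3, the lowest in ratio, had 108 FPKM with the Sox12 vector and 119 FPKM with the mock vector. Mcm2, Mcm6 and Mcm7 had ratios of 1.08 to 1.14, and Mcm10 had 1.09. Mcm4 was level at 81.6 FPKM with the Sox12 vector and 81.7 FPKM with the mock vector. Gins2 had 25.8 FPKM with the Sox12 vector and 30.5 FPKM with the mock vector (ratio 0.844), while its partner Gins1 was level at 15.0 FPKM in both. Cdt1, Cdc6, Cdc45, Pcna and Rfc4 had ratios of 0.942 to 0.991 whose counting intervals held 1. Rfc3 had 44.0 FPKM with the Sox12 vector and 38.2 FPKM with the mock vector, and the catalytic polymerase subunits Pole and Pola1 had ratios of 1.12 and 1.06. Of the cyclins E, Ccne1 had 46.8 FPKM with the Sox12 vector and 40.7 FPKM with the mock vector, and Ccne2 had 17.4 FPKM with the Sox12 vector and 19.5 FPKM with the mock vector. E2f1 had 15.0 FPKM with the Sox12 vector and 15.8 FPKM with the mock vector.

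By class the replication members had a median change of 0.00 and the mitotic members of -0.01, so the classes differed by 0.02 on the log2(FPKM + 1) scale. The summed level of the mitotic members was 1.10 times that of the replication members with the Sox12 vector and 1.14 times with the mock vector. In DSS Treg it was 0.825 times and in untreated Treg 0.802 times. Of the related genes that are not members, 19 of 47 replication genes and 30 of 69 mitotic genes were higher with Sox12. Their medians were -0.06 and -0.01. Over all genes 48.9% were higher, with a median of -0.01, so these lists lay near the whole. The histone chaperone subunit Chaf1b had 38.6 FPKM with the Sox12 vector and 24.7 FPKM with the mock vector (ratio 1.56), and the condensin subunit Ncapd2 had 135 FPKM with the Sox12 vector and 87.5 FPKM with the mock vector (ratio 1.54). The regulators of the E2F, Rb and MuvB type were higher in 12 of 18 (48.9% of all genes were), with a median of 0.21. E2f2, an activating E2F, had 41.0 FPKM with the Sox12 vector and 22.5 FPKM with the mock vector (ratio 1.82), and E2f8, a repressing E2F, had 21.02 FPKM with the Sox12 vector and 26.8 FPKM with the mock vector (ratio 0.785). The list was mixed in direction. E2f7, a repressing E2F like E2f8, had a ratio of 1.18, and Rb1 and Rbl2 had 1.26 and 1.28. E2f4 and E2f5 had 0.850 and 0.818.

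**Figure D5:**
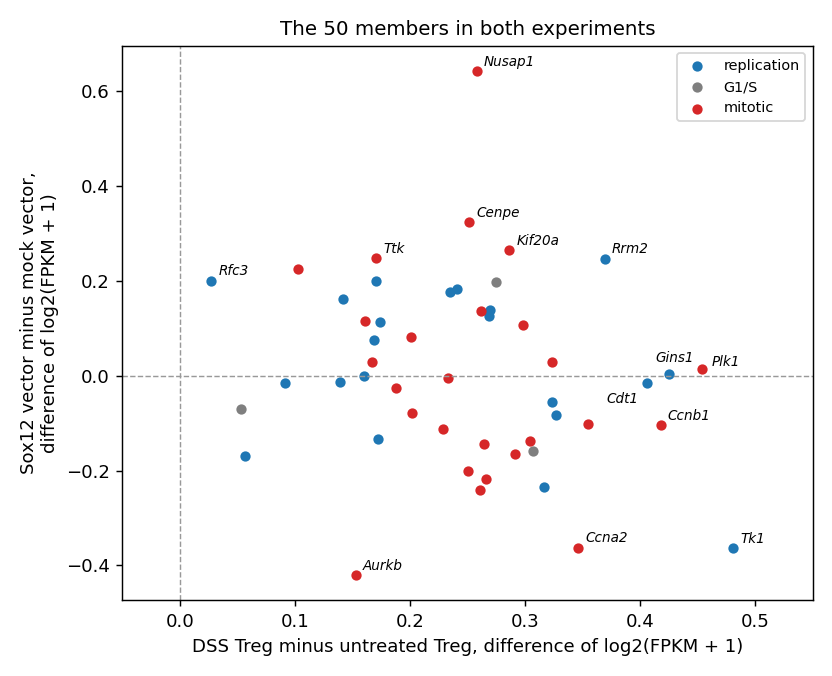
Change of each member in DSS Treg against untreated Treg (horizontal axis) and with the Sox12 vector against the mock vector (vertical axis), both as differences of log2(FPKM + 1), by class. All 50 points lie right of 0, with 24 above and 26 below the horizontal line, and Tk1 and Ccna2 lie to the right and low.

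The experiments share no library, so their changes can be set side by side. Across the 50 genes Spearman's rho between them was -0.21, a weak relation over genes that share each library and are not independent. Tk1 was the clearest case of opposite signs, with ratios of 1.42 in DSS Treg and 0.772 with Sox12. Cyclin A2 was another, with 1.28 in DSS Treg and 0.776 with Sox12. Rfc3 had the reverse pattern of a small difference in DSS Treg (1.02) and a higher value with Sox12 (1.15), and Rrm2 was higher in both, with 1.30 in DSS Treg and 1.19 with Sox12.

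The levels themselves were higher in the transduced cells, though the tables were normalized separately and the cells differ in strain and type. Mock vector values were 1.55 to 6.50 times the untreated Treg values, with a median of 4.72 for the mitotic and 3.31 for the replication members. The licensing factor Cdt1 gave the lowest of these, at 30.3 FPKM in mock vector cells and 19.6 FPKM in untreated Treg. All genes kept summed to 426203 FPKM in mock vector cells and 326466 FPKM in untreated Treg. The same ratio gene by gene over all genes was not computed, so how far it is particular to the members is unknown. The rank order of the members was much the same in both, with Spearman's rho of 0.91 between untreated Treg and mock vector levels across the 50 genes. Pcna was the most abundant member in all 4 libraries, and Hmgb2 or Top2a the most abundant mitotic member.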

How the data were processed

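RNA of 4 libraries in 2 experiments was sequenced from strand-specific libraries of total RNA, per the labels' protocols. Cufflinks and build mm9 are named, without versions, in the submitters' processing notes. Aligner, annotation and counting by strand were not stated there. The DSS table holds linear FPKM as the authors deposited them and a fold ratio that the authors computed from them, and it lists genes with more than 1.00 FPKM in at least 1 library. The vector table holds log2(FPKM + 1) values as the authors deposited them, a scale read from the values, and these were turned back to FPKM. Groups were taken from sample titles.

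Rows whose symbol a spreadsheet had turned into a date were left out (16 and 25). Changes are differences of log2(FPKM + 1), DSS minus untreated or Sox12 minus mock, a scale that understates the change of low genes. Ratios are of FPKM. Genes averaging 1 FPKM or more over both libraries passed the filter, 10545 and 10822 genes. No test was run, since a group is 1 library. Fragments in the vector libraries were estimated from low values and the lengths of principal transcripts in GENCODE vM21 (1707 genes below 0.1 FPKM in both libraries gave the relative depth), and intervals are approximate Poisson intervals. Depth in the vector libraries is thus an estimate, and that of the DSS libraries is unknown. The members and lists were chosen with earlier results of these data known. All 50 members may be named. Of other lists the text names members at least 1.5 times different or the most abundant. Those named beyond this were chosen after their values were seen. They are Mybl2, Rpa3, E2f4, E2f5, E2f7, E2f8, Rb1, Rbl2, Gins3, Gins4, Rfc1, Rfc2 and Rfc5. Also chosen so were single marker genes that bear on a count or a sum, and the repair genes of the closing section. Computations used Python 3.11.15 with pandas 2.3.3, and the calculation of changes was checked on simulated data. Alternatives varied the pseudocount, the filter and the scaling.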

Additional observations from a re-analysis of the deposited data

How the results depend on the processing

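Each count or median was recomputed with a pseudocount of 0.1 or 5, no filter, a mean of at least 5 FPKM, the median change set to 0, equal 75th percentiles, or equal summed FPKM without the 20 highest genes. A value is given below where it changed sign or moved by more than 1.5 times. Of 126 recomputed values 107 stayed within that.

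In the DSS experiment the members at least 1.2 times higher numbered 6 with a pseudocount of 5 (2.41% of all genes) and 12 with the median change set to 0 (4.80% of all genes). Either setting the median change to 0 or making the 75th percentiles equal put 1 member (Rfc3) lower. The mitotic minus replication median was 0.040 with a pseudocount of 0.1, and the median of other mitotic genes was 0.152 with a pseudocount of 5. With a mean of at least 5 FPKM 43 members were left, all higher.

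In the vector experiment the class medians lie so near 0 that scaling set their sign. With the median change set to 0 the replication, mitotic and other mitotic medians were 0.013, -0.0046 and -8.4e-05. With equal 75th percentiles the replication, mitotic, other replication and other mitotic medians were -0.028, -0.048, -0.088 and -0.042, and 5 members were at least 1.2 times lower (23.8% of all genes). With equal summed FPKM these 4 medians were 0.058, 0.043, 0.0026 and 0.046, and 6 members were at least 1.2 times higher (25.9% of all genes). The cause was not tested beyond the scaling itself. No paired analysis was possible because each group has 1 library. The depth of the DSS table is unknown, and spread between animals or cultures was not measured.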

Other observations

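Repair genes of S phase were not among the lists above and were added after the members' values were seen. In DSS Treg 22 of 24 were higher than in untreated Treg, against 66.1% of all genes. Their median change was 0.22 on the log2(FPKM + 1) scale, against 0.05 over all genes. Rad18, a ubiquitin ligase that acts on PCNA, had 7.51 FPKM in DSS Treg and 5.70 FPKM in untreated Treg (ratio 1.32). With the Sox12 vector 10 of the 24 were higher and 14 lower, with a median of -0.02. Of all genes 48.9% were higher and 51.1% lower, with a median of -0.01. At least 1.2 times higher was 1 of them (22.3% of all genes were), and at least 1.2 times lower were 3 (21.2% of all genes were). The higher one was the checkpoint kinase Chek2, with 10.8 FPKM with the Sox12 vector and 8.26 FPKM with the mock vector. The lowest in ratio was Rad51ap1, with 17.7 FPKM with the Sox12 vector and 23.6 FPKM with the mock vector (ratio 0.752).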
